A study of Homo sapiens with 3 samples.

Results

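MYC, its partner and antagonist, a classical MYC target and 32 genes of ribosome production were followed in T47D, a human breast cancer line that carries the estrogen receptor. The 36 genes were picked by symbol, and each had 1 row among the 58039 genes of the deposited table. The samples were 1 control library, described as carrying a control hairpin although its hairpin label reads None, and 2 libraries of cells with a short hairpin RNA against the long noncoding RNA ERINA. shRNA1 and shRNA2 are different hairpins, delivered by lentivirus into stable cells selected with puromycin, and neither condition has a repeat library. ERINA is listed as LINC00992, a match made through its RefSeq synonym, at 63.4 FPKM in the control, 5.21 FPKM with shRNA1 and 8.91 FPKM with shRNA2. FPKM counts fragments per kilobase of transcript, scaled to library size, so levels can be set side by side between genes. Where 3 levels follow a gene, they stand in the order control, shRNA1, shRNA2.

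MYC is a transcription factor that binds the DNA word CACGTG, the E-box, as a dimer with MAX, and MXI1 competes with it for MAX. Among its best known targets are genes of the nucleolus, where RNA polymerase I copies ribosomal DNA into a long precursor. Small nucleolar ribonucleoproteins (snoRNPs) modify that precursor, and separate sets of factors cut and fold it into the small and the large ribosomal subunit. The 36 genes were placed in 6 classes by role. These are the MYC network with the target ODC1 (4 genes), RNA polymerase I and its factors (6), snoRNP proteins (7), small subunit processing (7), large subunit processing (8) and nucleolar proteins with several roles (4).

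The E-box is shown first because it is the word that MYC binds and its count uses no expression value. RefSeq promoter windows, from 250 bases before to 50 bases after a start site on GRCh38.p14, matched 29 of the 36 genes by symbol, in 40 windows. MYC, POLR1E, NOP58, RRP12, RRS1, BOP1 and NOLC1 had no entry. CACGTG, which reads the same on both strands, lay in a window of 12 of the 29 genes (41.4%), against 12.7% of 8972 tested protein-coding genes and 8.77% of all 27305 genes with a window. By window the shares were 30.0% of 40 member windows, 9.37% of 13132 windows of tested protein-coding genes and 7.26% of all 35116 windows. The 12 genes were ODC1, FBL, NOP10, GAR1, WDR43, UTP20, BYSL, RRP9, NOP2, PES1, GNL3 and DDX21. None of the 5 RNA polymerase I genes with a window held it (POLR1A, POLR1B, POLR1C, UBTF and RRN3), whereas 4 of 6 small subunit factors did. Of the 14 copies in member windows, 13 began within 50 bases of the start site (92.9%), against 38.4% of the 1399 copies in windows of tested protein-coding genes. Median GC content was 64.3% in member windows and 65.0% in windows of tested protein-coding genes. For each class with a copy, the stretch around it is given for the gene with the largest expression change, 5′ to 3′ on the gene's own strand, with the E-box in capitals. ODC1 holds 2 copies on either side of its start site.
ODC1: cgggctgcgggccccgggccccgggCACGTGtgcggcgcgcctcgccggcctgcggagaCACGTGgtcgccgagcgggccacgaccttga
GAR1: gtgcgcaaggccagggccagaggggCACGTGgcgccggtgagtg
RRP9: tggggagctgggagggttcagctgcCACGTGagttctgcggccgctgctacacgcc
GNL3: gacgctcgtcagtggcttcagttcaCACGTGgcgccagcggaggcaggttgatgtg
DDX21: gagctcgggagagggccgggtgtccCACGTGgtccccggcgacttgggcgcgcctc
The stretches lie on GRCh38.p14 at chr2:10447977-10448066 on the minus strand for ODC1, chr4:109815768-109815811 on the plus strand for GAR1 and chr3:51941879-51941934 on the minus strand for RRP9. That of GNL3 lies at chr3:52686013-52686068 and that of DDX21 at chr10:68956591-68956646, both on the plus strand. Counted from the start site, the word begins at -29 and 5 in ODC1, 31 in GAR1, -5 in RRP9, 6 in GNL3 and -31 in DDX21, and it is a match of letters only.

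All 36 genes were expressed in each library, with a quantification status of OK throughout, and all passed the filter of a mean of at least 1 FPKM. The table listed between 22265 and 22725 genes above 0 FPKM per library, and depth was estimated at 32500000 to 33800000 fragments from genes that held a single fragment. All 10 luminal marker genes were expressed in each library, with ESR1 at 16.5 to 17.96 FPKM and KRT8 at 2221 to 2800.3 FPKM. With both shRNAs 3 of the 10 were higher than the control (PGR, FOXA1 and KRT19, log2 changes of 0.39, 0.50 and 0.58) and 4 lower, the lowest being TFF1 at -0.82 and CDH1 at -0.47. On protein-coding genes alone limma called 3 of the 10 higher and 1 lower, and their part in the results was not tested. Of 12 markers of immune, endothelial, stromal and basal cells, 8 were under 1 FPKM in each library and CD3E was at 0 throughout. Their summed level was 14.6 to 18.8 FPKM, most of it from ACTA2 (9.21 to 10.8 FPKM). COL1A1, a collagen gene, was at 5.16, 1.65 and 2.10 FPKM, and the part of this difference in the results was not tested.

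Control levels spanned 504-fold. NPM1, nucleophosmin, the main protein of the granular part of the nucleolus, stood at 1939.8 FPKM in the control, 2583 FPKM with shRNA1 and 2392 FPKM with shRNA2. It made up 56.2%, 61.9% and 61.1% of the summed FPKM of the 36 genes in these libraries. At the other end NOP2, a methyltransferase of 28S ribosomal RNA, was at 3.85, 4.09 and 3.33 FPKM and POLR1A, the largest subunit of RNA polymerase I, at 3.88, 5.46 and 5.27 FPKM. Of the 36 genes, 29 lay above the median control level of tested protein-coding genes, 13.6 FPKM. In the control, class medians were 149 FPKM for nucleolar proteins with several roles and 76.2 FPKM for snoRNP proteins. They were 27.8 FPKM for the MYC network, 23.0 for large subunit processing, 19.3 for RNA polymerase I and 19.2 for small subunit processing. The last 4 classes overlapped widely, with single genes from 3.85 to 58.6 FPKM.

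**Figure D1:**
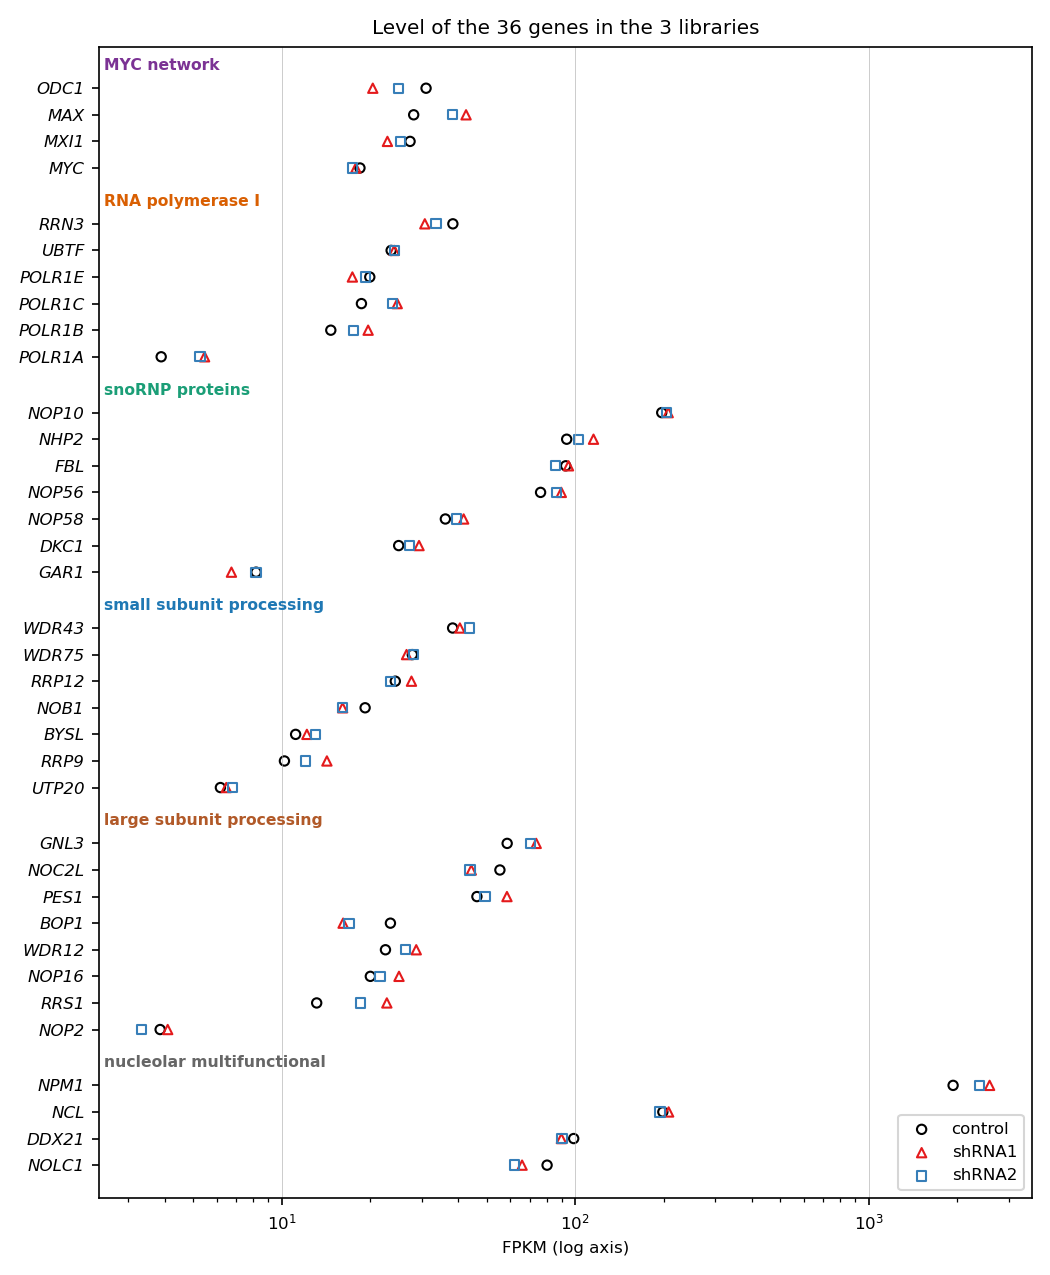
FPKM on a log axis for the 36 genes, grouped by class and ordered by control level. Each symbol is 1 library (circle, control; triangle, shRNA1; square, shRNA2). NPM1 stands far above the others at 1939.8 FPKM in the control, and for most genes the 3 symbols lie close together.

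Knockdown was set against control to see how these transcripts stand in cells with little ERINA. The differences were small and went both ways. None of the 36 was 2-fold apart from the control with either shRNA, where 4.46% of all tested genes were so with both. With both shRNAs, 20 of the 36 were higher than the control and 11 lower, and 5 were on opposite sides with the 2 hairpins. Over the 13112 tested genes 42.4% were higher and 42.6% lower with both (41.2% and 44.9% of protein-coding genes). The median log2 change of the 36 was 0.08, against 0.001 over all tested genes. Without the 18 genes that share exon bases with another annotated gene, 8 were higher and 7 lower, with a median of -0.005. That restriction removes all 8 large subunit genes, the class with the highest median. It also removes genes whose overlapping partner is listed at 0 in each library (MAX and MXI1) or is not listed (BOP1, RRS1 and NOP2). Other partners are expressed, such as HIGD2A beside NOP16 and YIPF3 beside POLR1C. The part of overlapping reads in the lower median was not tested. Scaling to an equal total FPKM, which puts the all-gene median at -0.115 for shRNA1 and -0.029 for shRNA2, gave 16 members higher and 15 lower, with a median of 0.005. Scaling to an equal protein-coding total gave 17 higher and 15 lower.

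No member passed limma over all genes at a Benjamini-Hochberg adjusted p under 0.05, in either direction (adjusted p of 0.0925 to 0.908). That threshold called 0.351% of all tested genes, 0.0839% higher and 0.267% lower. At an unadjusted p under 0.05 limma had 10 of the 36 members, 6 higher and 4 lower, against 29.7% of all tested genes (13.7% higher and 15.9% lower). With protein-coding genes tested alone, limma called MAX and RRS1 higher and BOP1 lower, 2 and 1 of 36, where it called 7.11% of such genes higher and 11.3% lower. The only spread in the fit is that between the hairpins (1 residual degree of freedom), and the lone control is assumed to vary like them. limma pools this spread with that of other genes, so a standard error does not rest on the gene's own 2 knockdown values alone. An exact permutation test of 1 library against 2 cannot go below 0.333, one-sided.

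With both shRNAs at least 25% above the control were 4 members, MAX, POLR1A, POLR1C and RRS1, where 14.1% of all tested genes met that rule. With the control at least 25% above both shRNAs were 2, BOP1 and NOC2L, where 16.6% did. The authors' deposited interval of each FPKM overlapped between control and knockdown for every member. Intervals of both shRNAs lay clear of the control in 0.305% of tested genes. The median absolute log2 change was 0.21 for members and 0.22 for tested protein-coding genes.

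**Figure D2:**
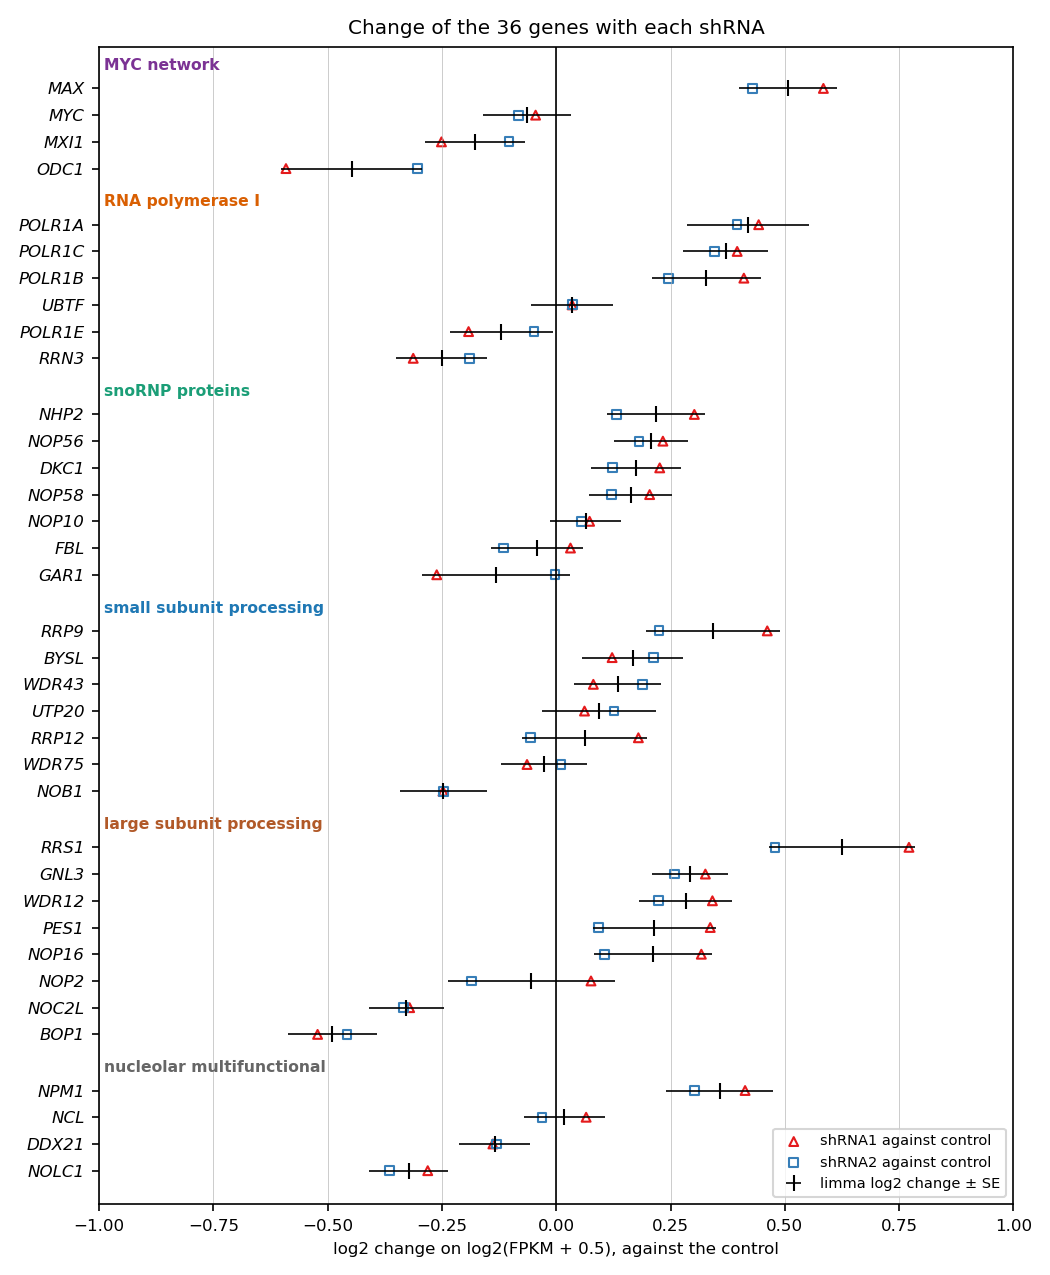
log2 change against the control on log2(FPKM + 0.5) for the 36 genes, grouped by class and ordered by the limma estimate. Triangles are shRNA1, squares shRNA2 and black ticks the limma estimate with its standard error. RRS1 and MAX lie farthest to the right, at 0.63 and 0.51, and BOP1 and ODC1 farthest to the left, at -0.49 and -0.45.

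In the MYC network the transcription factor was nearly level while its partner was higher. MYC (ENSG00000136997, chromosome 8, 127735434 to 127741434 on the plus strand in GENCODE 29, GRCh38) was at 18.5 FPKM in the control, 17.9 FPKM with shRNA1 and 17.4 FPKM with shRNA2. Its limma log2 change was -0.06 (SE 0.096, Benjamini-Hochberg adjusted p of 0.674), a difference smaller than its standard error. MAX (ENSG00000125952, chromosome 14, 65006174 to 65102695, minus strand) was at 28.2, 42.5 and 38.1 FPKM. Both knockdown libraries lay above the control, a log2 change of 0.51 (SE 0.11, limma adjusted p of 0.0968 over all genes, 0.0224 over protein-coding genes alone and up to 0.256 under other settings). The deposited bounds of MAX are wide, 1.55 to 54.8 FPKM in the control and 4.33 to 80.6 FPKM with shRNA1. The MAX level was 1.52 times that of MYC in the control, 2.37 times with shRNA1 and 2.19 times with shRNA2.

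MXI1, the antagonist, was at 27.4, 22.9 and 25.4 FPKM, so that MAX went from 1.03 times MXI1 in the control to 1.85 and 1.5 times with shRNA1 and shRNA2. ODC1, which catalyses the first step of polyamine synthesis (ENSG00000115758, chromosome 2, 10439968 to 10448504, minus strand), was at 31.0, 20.4 and 25.04 FPKM. Both knockdown values lay below the control, but they differed from each other nearly as much as shRNA2 differed from the control. Its log2 change was -0.45 (SE 0.15, limma adjusted p of 0.162). ODC1 has 2 E-boxes close to its start site, and NOP10 also has 2 in its window, beginning at -170 and -11. ODC1 carries the snoRNA gene SNORA80B inside its body, listed at 26.2, 40.7 and 61.3 FPKM with deposited lower bounds of 0 in each library.

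RNA polymerase I genes split by subunit. The catalytic core genes POLR1A and POLR1B, and POLR1C, a subunit shared with RNA polymerase III, were higher with both shRNAs. POLR1A (ENSG00000068654, chromosome 2, 86020216 to 86106155, minus strand) had a log2 change of 0.42 (SE 0.13, limma adjusted p of 0.148) on the levels given above. POLR1B, the second largest subunit, was at 14.7, 19.7 and 17.5 FPKM. POLR1C (ENSG00000171453, chromosome 6, 43509702 to 43562419, plus strand) was at 18.7, 24.7 and 23.9 FPKM, with a log2 change of 0.37 (SE 0.093, limma adjusted p of 0.11). The deposited bounds of POLR1C are wide, 0 to 38.9 FPKM in the control and 0 to 47.9 FPKM with shRNA2. Its exons overlap those of XPO5 and YIPF3 on the other strand, listed at 18.7, 21.6 and 20.7 FPKM and at 69.9, 81.3 and 78.9 FPKM, and whether reads were counted by strand is not given in the sources used here.

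The other 3 genes of this class were lower or nearly level. POLR1E, the PAF53 subunit, was at 19.96, 17.4 and 19.3 FPKM, and UBTF, the factor that coats ribosomal DNA, at 23.6, 24.2 and 24.2 FPKM. RRN3, the factor that brings the polymerase to its promoter, was at 38.3, 30.7 and 33.5 FPKM. RRN3 has 3 listed pseudogene copies with a summed level of 0.574 to 1.24 FPKM, far below its own. The class median was 0.18, with single genes from -0.25 to 0.42, and 0.11 after scaling to an equal total. With genes of a mean of at least 5 FPKM alone, which leaves out POLR1A, it was 0.04.

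snoRNP proteins had the narrowest range of the 6 classes, with single log2 changes from -0.13 to 0.22. In the box C/D particles, which guide ribose methylation, the methyltransferase FBL (fibrillarin) was at 92.8, 94.9 and 85.6 FPKM. Its core partners NOP56 and NOP58 were at 76.2, 89.7 and 86.5 FPKM and at 36.1, 41.7 and 39.3 FPKM, both slightly above the control with each hairpin. NOP56 kept a ratio to NOP58 of 2.11, 2.15 and 2.2, while FBL to NOP58 was 2.57, 2.28 and 2.18.

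In the box H/ACA particles, which guide pseudouridylation, the 4 proteins are found together but their transcripts were far from equal. The synthase DKC1 (dyskerin) was at 25.03, 29.4 and 27.3 FPKM, NHP2 at 93.5, 115 and 102.6 FPKM and NOP10 at 197, 207 and 205 FPKM. GAR1 was lowest at 8.18, 6.74 and 8.16 FPKM. Relative to DKC1, NOP10 was 7.88 times as high in the control, 7.06 times with shRNA1 and 7.51 times with shRNA2, and in each library the order from high to low was NOP10, NHP2, DKC1, GAR1. NHP2 overlaps RMND5B on the other strand over up to 379 exon bases. The class median was 0.16, but -0.04 for the members without shared exon bases, which are FBL, NOP10 and GAR1. Of the genes left out, NOP56, NOP58 and DKC1 share exon bases only with snoRNA or microRNA genes.

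Of the 7 small subunit factors 4 were higher with both shRNAs, 1 lower and 2 on opposite sides, with a median of 0.09. RRP9, a protein of the U3 snoRNP, was at 10.2, 14.3 and 12.02 FPKM. BYSL (bystin), WDR43 of the UTP-A complex and the scaffold protein UTP20 were each highest with shRNA2, at 13.0, 43.6 and 6.79 FPKM against 11.2, 38.2 and 6.18 FPKM in the control. With shRNA1 these 3 stood at 12.2, 40.5 and 6.47 FPKM. NOB1, the nuclease that makes the 3′ end of 18S ribosomal RNA, was at 19.2, 16.1 and 16.1 FPKM, the 2 hairpins nearly equal. WDR75, which works beside WDR43, was at 27.9, 26.6 and 28.1 FPKM, and RRP12, an export factor, at 24.4, 27.7 and 23.4 FPKM, with the control between the hairpins in both.

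Large subunit factors held both ends of the range of change. RRS1, which brings the 5S particle into large subunit precursors (ENSG00000179041, chromosome 8, 66429028 to 66430733, plus strand), was at 13.2 FPKM in the control, 22.8 FPKM with shRNA1 and 18.5 FPKM with shRNA2. Its knockdown mean was 20.7 ± 3.03 FPKM (SD, n = 2), 1.57-fold above the control, with a log2 change of 0.63 (SE 0.16, limma adjusted p of 0.112 over all genes, 0.0275 over protein-coding genes alone and up to 0.308 under other settings). It shares 194 exon bases with the protein-coding gene AC009879.2 on the same strand.

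BOP1, PES1 and WDR12 form the PeBoW complex, which is needed for the large subunit RNAs, and their transcripts went in different directions. BOP1 (ENSG00000261236, chromosome 8, 144262102 to 144291370, minus strand) was at 23.5, 16.2 and 16.9 FPKM. The knockdown mean of 16.6 ± 0.537 FPKM (SD, n = 2) lay 1.42-fold below the control, a log2 change of -0.49 (SE 0.098, limma adjusted p of 0.0925 over all genes, 0.0262 over protein-coding genes alone and up to 0.227 under other settings). PES1 was at 46.2, 58.5 and 49.3 FPKM and WDR12 at 22.6, 28.7 and 26.4 FPKM, both above the control with each hairpin. PES1 was thus 1.97 times BOP1 in the control, 3.62 times with shRNA1 and 2.91 times with shRNA2. WDR12 and BOP1 were nearly equal in the control (a ratio of 0.962) and 1.78 and 1.56 in the knockdown libraries. These ratios within a library do not depend on scaling between libraries, and have no test.

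Among the other large subunit factors GNL3, nucleostemin, was at 58.6, 73.6 and 70.3 FPKM, and NOP16 at 20.04, 25.1 and 21.6 FPKM. NOP16 shares up to 227 exon bases with HIGD2A on the other strand, listed at 89.6, 127 and 109 FPKM. NOC2L, also an inhibitor of histone acetylation (ENSG00000188976, chromosome 1, 944204 to 959309, minus strand), was at 55.4, 44.3 and 43.8 FPKM, with a log2 change of -0.33 (SE 0.081, limma adjusted p of 0.11). It overlaps SAMD11 on the other strand, listed at 6.96, 9.19 and 7.71 FPKM. NOP2 lay on opposite sides of the control, and shares up to 757 exon bases with AC006064.6 on the same strand. The class median was 0.21, with 0.32 for shRNA1 and 0.10 for shRNA2, the widest gap between hairpins of any class.

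The 4 abundant nucleolar proteins went in different directions. NPM1, at the levels given above, was 1.33 times the control with shRNA1 and 1.23 times with shRNA2. Its 45 listed pseudogene copies summed to 24.5, 31.4 and 29.7 FPKM, a small part of the NPM1 level. NCL, nucleolin, was at 199, 208 and 195 FPKM, with the control between the hairpins, so that NPM1 went from 9.75 times NCL to 12.4 and 12.3 times. NOLC1, a chaperone of snoRNPs (ENSG00000166197, chromosome 10, 102152176 to 102163871, plus strand), was at 80.2, 65.9 and 62.2 FPKM, with a log2 change of -0.32 (SE 0.087, limma adjusted p of 0.119). DDX21, an RNA helicase, was at 98.8, 89.7 and 90.2 FPKM.

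The hairpins share their control library and differed in how far from it they lay. Of the 31 members on 1 side of the control with both shRNAs, shRNA1 was farther from the control in 24 (77.4%), including 16 of the 20 higher and 8 of the 11 lower genes. The same held for 69.5% of 9939 tested protein-coding genes. The listed ERINA level was also lower with shRNA1, but the deposited ERINA bounds overlap, 2.09 to 8.34 FPKM with shRNA1 and 4.04 to 13.8 FPKM with shRNA2. With 1 library per hairpin, a part of the ERINA level cannot be told apart from other differences between the libraries. BYSL, WDR43, UTP20, UBTF, MYC, NOC2L and NOLC1 were the 7 members farther from the control with shRNA2. The median absolute log2 difference between hairpins was 0.11 for members and 0.11 for tested protein-coding genes. It was smaller than the absolute change from the control in 28 of 36 members (77.8%), and in 73.8% of tested protein-coding genes.

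**Figure D3:**
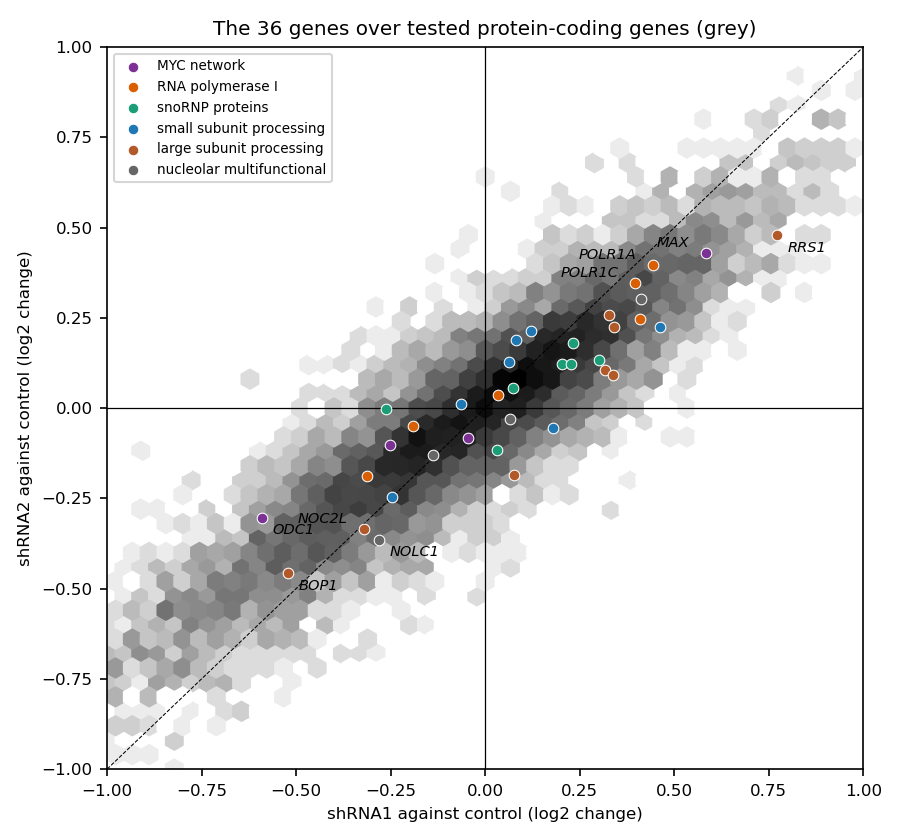
log2 change with shRNA2 (vertical axis) against that with shRNA1 (horizontal axis), both on log2(FPKM + 0.5) and against the same control library. Coloured points are the 36 genes by class, and grey hexagons show tested protein-coding genes within the plotted range, darker for more genes on a log scale. The 36 points lie within the grey cloud, with RRS1 and MAX at the upper right and BOP1 and ODC1 at the lower left.

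Other genes of the same pathways gave a similar picture. Of 174 found in the table, 168 were tested. Of these 88 were higher and 60 lower with both shRNAs (52.4% and 35.7%), against 42.4% and 42.6% of all tested genes. Their median log2 change was 0.08. None passed limma over all genes after Benjamini-Hochberg adjustment (adjusted p), while 46 of 168 (27.4%) had an unadjusted limma p under 0.05, against 29.7% of all tested genes. On protein-coding genes alone limma called 10 of them higher and 13 lower, where it called 7.11% and 11.3% of all such genes. With its robust option over all genes it called 2 higher and 4 lower, where it called 3.28% and 4.54% of all tested genes. None of these limma counts exceeds the share over all genes.

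By list, 4 of 10 other MYC network genes were higher and 4 lower with both shRNAs. The lowest was MXD3, a further MAX partner that antagonises MYC, at 13.1, 6.37 and 7.82 FPKM, and HUWE1, a ubiquitin ligase, was at 38.1, 32.5 and 35.4 FPKM. FBXW7, the ubiquitin ligase subunit that targets MYC, was at 10.7, 14.3 and 12.3 FPKM and ZBTB17 (MIZ1) at 6.17, 8.60 and 6.91 FPKM. Of 27 other MYC targets 16 were higher and 8 lower (59.3% and 29.6%). TFRC, the transferrin receptor, was at 325, 559.6 and 515 FPKM and the chaperone FKBP4 at 141, 210 and 189 FPKM. The folate carrier SLC19A1 was at 7.43, 5.40 and 4.92 FPKM and PPAT, the first enzyme of purine synthesis, at 16.7, 11.9 and 12.4 FPKM.

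Of 18 other RNA polymerase I genes 8 were higher and 10 lower (44.4% and 55.6%). POLR1D, the partner of POLR1C in RNA polymerases I and III, was at 38.0, 19.2 and 21.5 FPKM, the opposite direction to POLR1C. PTRF was at 11.2, 5.19 and 7.70 FPKM, against POLR2L at 53.1, 79.9 and 62.5 FPKM and TWISTNB at 14.2, 21.0 and 17.0 FPKM. Of 48 other small subunit factors 26 were higher and 17 lower (54.2% and 35.4%). FCF1 and IMP3, both of the early processome, were at 37.9, 20.8 and 23.2 FPKM and at 40.8, 24.4 and 29.4 FPKM, whereas NOP9 was at 4.22, 7.33 and 5.74 FPKM and LTV1 at 13.1, 19.4 and 16.3 FPKM.

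Of 51 other large subunit factors 27 were higher and 16 lower (52.9% and 31.4%). EIF6, which keeps free large subunits from joining small ones, was at 221, 133 and 151 FPKM and the SUMO protease SENP3 at 29.7, 19.4 and 21.3 FPKM. The helicase DDX56 was at 59.7, 86.9 and 83.1 FPKM and NLE1 at 16.5, 24.6 and 22.4 FPKM. Of 14 snoRNP partners and assembly factors 7 were higher and 5 lower, among them RUVBL1 at 61.1, 82.2 and 77.3 FPKM and ZNHIT6 at 6.81, 9.06 and 9.26 FPKM. RPAP3 was at 36.4, 27.8 and 28.9 FPKM and TCOF1, the treacle protein, at 14.2, 11.7 and 12.01 FPKM.

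Genes of proliferating cells were lower in the same libraries. All 18 of a list of proliferation genes were lower than the control with both shRNAs, where 42.6% of all tested genes were. Their median log2 change was -0.67, and 4 of the 18 lay within the range of the 36 members. The list was chosen with earlier results of these data known. On protein-coding genes alone limma called 16 of the 18 lower, where it called 11.3% of all such genes. Over all genes it called 0, with 17 at an unadjusted limma p under 0.05, against 29.7% of all tested genes (15.9% lower). The summed level of the 18 genes was 1315 FPKM in the control, against 743 and 861 FPKM with the hairpins. In bulk RNA, fewer cells in cycle and less of these RNAs per cell cannot be told apart. The 36 genes summed to 3452, 4175 and 3917 FPKM, and without NPM1 to 1512, 1592 and 1525 FPKM. Total FPKM also differed between the libraries, at 790290, 860240 and 808451, and these sums are not scaled for it. The part of the lower proliferation genes in the changes of the members was not tested.

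**Figure D4:**
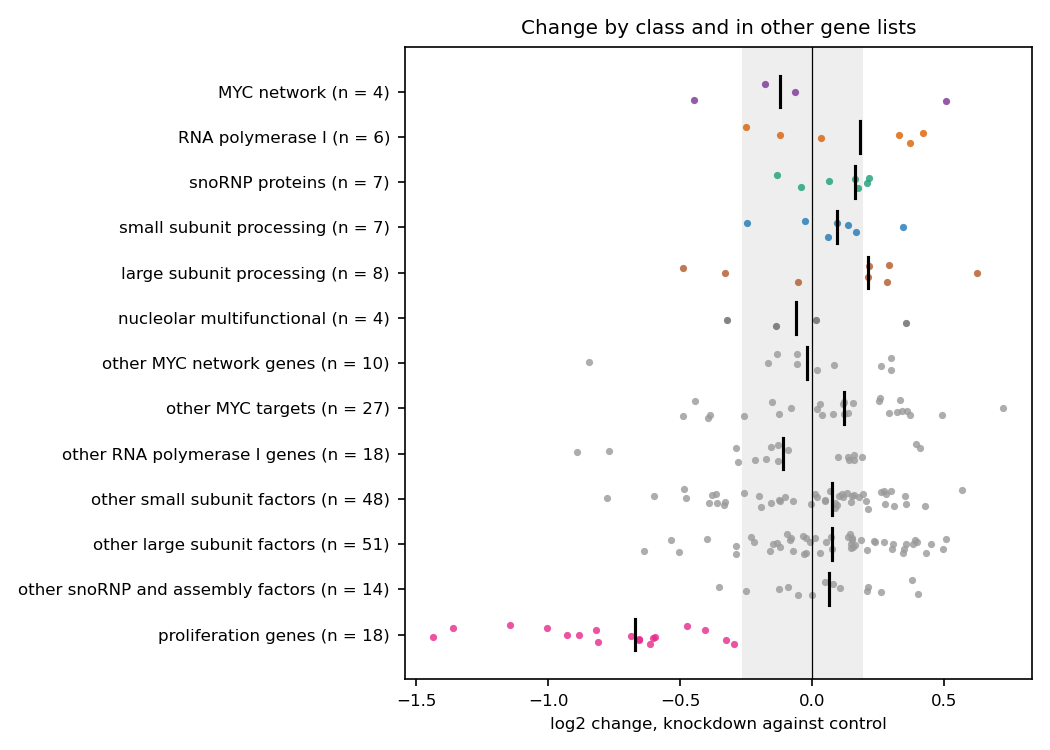
limma log2 change, knockdown against control, for each gene of the 6 classes, of 6 lists of other pathway genes (grey) and of proliferation genes (pink). Black bars are medians, and the shaded band runs from the 25th to the 75th percentile of tested protein-coding genes (-0.26 to 0.19). The members and the other pathway genes straddle 0, and the 18 proliferation genes all lie below it.

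A feature that several members share is that they host snoRNA genes. In GENCODE 29, 8 of the 36 genes carry 25 snoRNA genes inside their bodies on the same strand, namely DKC1, GNL3, NCL, NOP56, NOP58, ODC1, POLR1C and WDR43. Of these snoRNA genes 22 are listed at 0 in each of the 3 libraries, and the others are SNORA80B, SNORA51 (12.6 FPKM with shRNA1 alone) and SNORA56 (5.93 FPKM with shRNA1 alone). The 25 snoRNA genes are 68 to 137 bases long. How well the libraries capture RNAs of that length was not tested, so a level of 0 does not show that a snoRNA is absent. The shRNA1 values of SNORA51 and SNORA56 have deposited lower bounds of 0 and upper bounds of 224 and 122 FPKM. The 8 hosts had a median log2 change of 0.17, with 6 higher and 1 lower with both shRNAs, and the 28 other members 0.05, with 14 higher and 10 lower. The 12 members with an E-box in a promoter window had a median of 0.08 (7 higher and 3 lower) and the 17 without 0.21 (11 higher and 4 lower). No difference between these groups was tested.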

How the data were processed

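RNA sequencing of 3 T47D libraries was deposited by the authors as FPKM per gene, with a lower and an upper bound and a quantification status, per the file headers. The submitters' processing notes name STAR, RSEM and GRCh38, without version or role. Scaling, filters, annotation release and strand use were not given in the sources used here. The layout resembles that of Cufflinks, which the notes do not name. Changes were computed on log2(FPKM + 0.5), which understates those of low genes, for the 13112 genes whose mean FPKM reached 1. The test was limma 3.58.1 in R 4.3.3 (eBayes with trend, Benjamini-Hochberg over all tested genes, threshold 0.05). The fit was also run on simulated data, with the noise of all 3 libraries drawn from the difference between the hairpins. That run checked median estimates of change, and could not show whether the control varies like the hairpins. P-values measure only the spread between 2 libraries, which limma pools over genes. Of the deposited genes 99.0% matched GENCODE 29, the source of types, exons and overlaps. Depth was estimated from genes of at least 2000 exon bases with 1 transcript. Promoters came from RefSeq. Python 3.11.15, pandas 2.3.3, numpy 2.4.6 and matplotlib 3.10.9 were used. Named genes were MYC, members past the threshold and the 4 largest changes in each direction with limma statistics, all other members by level, and from each list of other genes the 2 largest changes in each direction. Members, classes and lists were chosen with earlier results of these data known. Alternatives were other pseudocounts, filters and scalings, limma without trend or robust, protein-coding genes alone, and each shRNA left out. Restriction to genes without shared exon bases was added after seeing the data.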

Additional observations from a re-analysis of the deposited data

How the results depend on the processing

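No paired analysis was possible because the control is a single library. No limma call among members was gained under other pseudocounts, filters, scalings, without the trend or with the robust option, and protein-coding genes alone gave 2 higher and 1 lower. Over all tested genes limma called 46, against 2120 of protein-coding genes alone, 1025 with the robust option, 175 with the same total and 0 of 26013 without a filter. For other pathway genes the protein-coding setting gave 10 higher and 13 lower and the robust option 2 higher and 4 lower. The median of all members went from 0.08 to 0.005 with the same total, 0.025 with the same protein-coding total and -0.005 without shared exon bases (8 higher and 7 lower in place of 20 and 11). Over all tested genes the median was 0.001 in the main setting, -0.073 with the same total and -0.054 with the same protein-coding total. Both scalings thus lowered the members and the other genes alike. With the same total and the same protein-coding total, class medians were -0.197 and -0.176 for the MYC network, 0.106 and 0.126 for RNA polymerase I, 0.086 and 0.107 for snoRNP proteins, 0.022 and 0.041 for small subunit processing, 0.137 and 0.157 for large subunit processing, and -0.136 and -0.116 for nucleolar proteins with several roles. A mean FPKM of at least 5 gave RNA polymerase I 0.035, since POLR1A then drops out. Without shared exon bases medians were -0.256 for the MYC network, 0.104 for RNA polymerase I, -0.043 for snoRNP proteins and 0.135 for small subunit processing, and no large subunit gene remained. With shRNA1 or shRNA2 left out, the median of all members was 0.074 and 0.079, and that of small subunit processing 0.126 and 0.081. Small changes turned sign with the same total in UBTF (-0.041), NOP10 (-0.013), RRP12 (-0.014) and NCL (-0.06), and with the same protein-coding total in UBTF (-0.021) and NCL (-0.04). Scaling multiplies each library by a single factor, so all these genes shift by nearly the same amount. With shRNA1 or shRNA2 left out, changes ran from -0.064 to 0.01 for WDR75, -0.056 to 0.18 for RRP12, -0.031 to 0.065 for NCL, -0.116 to 0.031 for FBL and -0.185 to 0.076 for NOP2. The cause of these differences between the hairpins was not tested. The single control library limits every comparison, and no test could be made with an shRNA library left out.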
